A study of Homo sapiens with 4 samples.

Results

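The short genes of the deposited tables are the rows whose listed length runs from 3000 to under 10000 bp. There are 3214 of them among 9667 genes, taken as the union over the 4 tables, with a gene that a table does not list set to 0 there. Each was read from its start to its start plus its length in bins of 200 bp. Of the 3214, 1479 were protein-coding and 1557 were long noncoding in GENCODE 44, 81 had other biotypes and 97 had no entry. Their median length was 5584 bp.

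The libraries are FLASH-seq, a crosslinking pull-down in which ultraviolet light links protein to RNA in the living cell, streptavidin beads retain the biotin-tagged protein, RNase I shortens the RNA and what stays bound is sequenced. All cells were RPE1, an immortalised human retinal pigment epithelial line, labelled iCas9 and p53/puro-dKO, so that p53 was absent from every group, and with CFAP20 knocked out. The CFAP20-KO group (2 libraries) was the negative control, with no tagged protein, and the tagged-CFAP20 group (2 libraries) was the same CFAP20-KO line expressing FLASH-BIO-CFAP20. The question posed by the series was whether CFAP20, a protein known from cilia and flagella, binds RNA. Nothing in the labels says whether the replicates were separate cultures, or whether each line was 1 clone, so every test below measures only the spread between libraries, which may be technical.

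Short genes make a compact transcript in which exons take up a larger part of the gene than in long genes. Many are made and turned over fast, among them growth response genes, whose mRNAs are induced within minutes and decay quickly. Others carry housekeeping functions, such as ribosomal proteins, chaperones and splicing regulators of the SR family, whose introns hold conserved exons that target the transcript for decay when they are included.

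The stretches that carried most signal inside individual members are printed here to show what the reads lay on. For each gene the stretch is the 200-bp bin with the highest mean signal in the tagged-CFAP20 libraries among bins in which no base is untranslated in any GENCODE 44 transcript of that gene, so bins that run partly into an untranslated region were passed over even where their signal was higher. In NORAD, which had more signal in CFAP20-KO, it is a bin with the highest mean there. Sequences are from hg38, read 5′ to 3′ on the strand of the gene. In PLK2, ZFP36L1, MXRA8, RPS24 and SOX9 the capitals mark bases in exons of the Ensembl canonical transcript.

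PLK2, chr5:58456361-58456560, minus strand: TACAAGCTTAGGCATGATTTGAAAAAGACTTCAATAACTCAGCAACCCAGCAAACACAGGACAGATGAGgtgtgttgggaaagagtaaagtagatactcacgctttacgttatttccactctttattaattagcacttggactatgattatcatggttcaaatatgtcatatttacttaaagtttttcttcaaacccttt

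ZFP36L1, chr14:68789837-68790036, minus strand: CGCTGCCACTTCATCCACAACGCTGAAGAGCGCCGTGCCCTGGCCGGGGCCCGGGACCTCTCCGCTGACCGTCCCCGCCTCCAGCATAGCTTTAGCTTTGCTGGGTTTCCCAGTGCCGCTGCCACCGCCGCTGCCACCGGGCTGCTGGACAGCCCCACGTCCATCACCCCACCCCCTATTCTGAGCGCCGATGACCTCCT

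MXRA8, chr1:1354036-1354235, minus strand: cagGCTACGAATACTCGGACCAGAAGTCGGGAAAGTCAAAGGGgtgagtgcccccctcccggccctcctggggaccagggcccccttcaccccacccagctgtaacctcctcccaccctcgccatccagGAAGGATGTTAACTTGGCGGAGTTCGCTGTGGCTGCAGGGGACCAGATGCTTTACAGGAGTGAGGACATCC

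RPS24, chr10:78037165-78037364, plus strand: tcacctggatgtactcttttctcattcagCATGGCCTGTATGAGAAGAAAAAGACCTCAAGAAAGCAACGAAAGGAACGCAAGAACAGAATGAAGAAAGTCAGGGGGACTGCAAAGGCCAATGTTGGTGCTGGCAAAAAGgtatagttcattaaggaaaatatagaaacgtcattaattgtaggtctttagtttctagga

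SOX9, chr17:72124120-72124319, plus strand: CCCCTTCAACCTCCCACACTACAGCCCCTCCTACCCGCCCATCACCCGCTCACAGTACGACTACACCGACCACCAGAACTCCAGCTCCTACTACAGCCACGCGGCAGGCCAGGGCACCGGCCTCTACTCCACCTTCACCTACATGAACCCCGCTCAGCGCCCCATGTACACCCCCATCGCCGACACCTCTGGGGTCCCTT

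In SRSF6 the capitals mark bases that are intronic in the canonical transcript and exonic in another one.

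SRSF6, chr20:43458628-43458827, plus strand: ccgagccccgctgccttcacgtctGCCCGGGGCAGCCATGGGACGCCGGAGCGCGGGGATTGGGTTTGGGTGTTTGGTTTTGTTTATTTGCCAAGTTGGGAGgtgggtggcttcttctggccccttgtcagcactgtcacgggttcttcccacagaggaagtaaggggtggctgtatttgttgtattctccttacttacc

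In NORAD the capitals mark 2 matches of TGTANATA, the motif of Pumilio proteins, on the gene's strand.

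NORAD, chr20:36049661-36049860, minus strand: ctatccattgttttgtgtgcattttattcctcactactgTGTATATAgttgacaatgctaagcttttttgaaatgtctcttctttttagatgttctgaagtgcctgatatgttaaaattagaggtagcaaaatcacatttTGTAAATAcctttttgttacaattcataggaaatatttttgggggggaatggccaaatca

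The PLK2, RPS24 and MXRA8 stretches span exon and intron, the ZFP36L1 and SOX9 stretches are exon throughout, and the SRSF6 stretch lies inside an intron of the canonical transcript. In its stretch MXRA8 had 0 in both CFAP20-KO libraries and a signal of 244 and 139 in tagged-CFAP20 replicates 1 and 2. The RPS24 stretch had 83.0 and 0 in CFAP20-KO against 424 and 585.2 with the tagged protein. The GC content of these bins ran from 32.0% in NORAD and 34.5% in PLK2 to 68.0% in ZFP36L1.

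Depth differed between the groups. Over all gene windows reads overlapped bins 26806 and 11485 times in CFAP20-KO replicates 1 and 2. In tagged-CFAP20 replicates 1 and 2 they did so 483384 and 391127 times, of which 12845 and 10442 fell on short genes. On short genes CFAP20-KO replicate 2 had 272 overlaps, and replicate 1 also had far fewer than either tagged-CFAP20 library. All CFAP20-KO values for short genes below rest on these few overlaps. One overlap was worth a signal of 83.0 and 276.88 in CFAP20-KO and of 12.9 and 13.9 in tagged-CFAP20. With 0 overlaps in 1 library a gene can still have a signal of up to 342 and 1141 in the CFAP20-KO libraries, and of up to 53.0 and 57.4 in the tagged-CFAP20 libraries, by counting error alone, taken as 3 reads. A read overlapped 1.37 bins on average. Pooled reads below are overlaps divided by that number, rounded to whole reads in each library and then added within the group. Where the controls held few reads this rounding can move the pooled-read ratio. Intervals and floors cover counting error only, and not the rounding. CFAP20 itself has no row in the tables. In the 76.0% of it that lies in the window of its neighbour MMP15 there were 0 overlaps in both CFAP20-KO libraries and 43 and 39 in the tagged-CFAP20 libraries. Of the marker genes fixed for other cell types, 6 liver markers and 1 blood marker were short, and of these APOC3 alone had signal, 5.21 and 11.3 in the tagged-CFAP20 libraries. For the line itself, 2 RPE markers were short and 1 of them had signal. This was OTX2, a transcription factor of the eye, with 334 and 475 in the tagged-CFAP20 libraries and 0 in CFAP20-KO. Its tagged-CFAP20 mean was 1.54 times the pooled CFAP20-KO floor of 3 reads, a signal of 263. Of 2 short markers of epithelial and mesenchymal lines, SNAI2 alone had signal. SNAI2, a mesenchymal transcription factor, was under that floor in every library.

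Signal was found on 1325 of the 3214 short genes in at least 1 library, and 1889 were at 0 in all 4. It was present on 284 and 145 short genes in CFAP20-KO replicates 1 and 2 and on 1070 and 1041 in tagged-CFAP20 replicates 1 and 2. Of the members 79 had it in all 4 libraries, and 20 had it in a CFAP20-KO library and in no tagged-CFAP20 library. The part of the unequal depth in these counts was not tested.

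Summed over all members, the signal was 51364 and 75234 in CFAP20-KO and 165098 and 145498 in tagged-CFAP20. Both tagged-CFAP20 libraries lay above both controls. The ratio of the means was 2.45, with 155298 ± 13860 against 63299 ± 16878 (SD, n = 2 each). With 2 libraries a group an exact two-sided permutation test can give no p below 0.333, and it gave p = 0.333 here (adjusted p = 0.533 over the 8 summary measures tested in this way). The deposited scale is not explained, and once each library was scaled to the same total over the gene windows the ratio was 1.14. The ratio compares RNA recovered with and without the tagged protein, and it does not measure transcript levels. In such bulk libraries recovery from fewer cells and less recovery per cell cannot be told apart.

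As a share of the signal on all genes, which no scale factor per library can change, the short genes held 6.78% and 6.98% in CFAP20-KO and 7.81% and 7.77% in tagged-CFAP20. The share was higher with the tagged protein by 0.910 percentage points and the groups did not overlap (exact permutation p = 0.333, adjusted p = 0.533). It was 0.767 points higher without PLK2 and CCN1, the members with most signal. The range from 3 to under 8 kb gave 0.488 points and the range from 5 to under 10 kb gave 1.29 points. The 2 strongest members held 5.82% and 6.62% of the short-gene signal in CFAP20-KO and 7.50% and 7.54% in tagged-CFAP20, and the 100 strongest held between 50.9% and 66.1% in each library.

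Per kb of gene, the short genes had a signal of 2.71 and 3.97 in CFAP20-KO and 8.70 and 7.67 in tagged-CFAP20. Genes of 10 to under 50 kb had 2.84 and 4.21 in CFAP20-KO and 8.71 and 7.63 in tagged-CFAP20. The short genes were lower in 3 of the 4 libraries, with a mean difference of -0.0867 ± 0.129 (SD of the differences, n = 4), which is smaller than its spread (exact paired permutation p = 0.375, adjusted p = 0.375 over 5 measures). Against all genes of 10 kb and more, within 100 kb of the start, the density of the short genes was 1.03 and 1.06 times as high in CFAP20-KO and 1.20 and 1.19 times in tagged-CFAP20. The groups did not overlap in this ratio, whose difference was 0.150 (exact permutation p = 0.333, adjusted p = 0.533). With genes of 10 to under 50 kb alone as the comparison that difference was 0.0551.

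**Figure D1:**
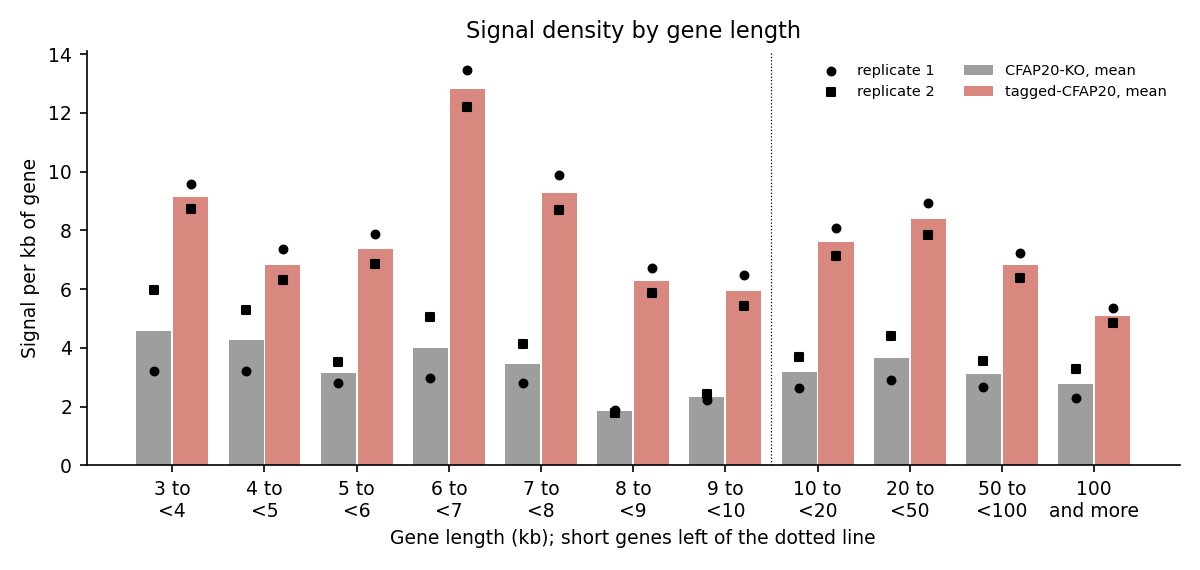
Signal per kb of gene (vertical axis) in classes of gene length in kb (horizontal axis), with bars for the mean of each group and points for the 2 replicates. Among short genes the density with the tagged protein ran from 5.95 at 9 to under 10 kb to 12.8 at 6 to under 7 kb. That class held 1.64% and 1.68% of all gene signal in tagged-CFAP20 replicates 1 and 2, of which PLK2 made up 0.342% and 0.356%.

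Within the short genes the density did not run in 1 direction with length. The mean with the tagged protein was 9.15 ± 0.592 at 3 to under 4 kb, 12.8 ± 0.889 at 6 to under 7 kb and 5.95 ± 0.739 at 9 to under 10 kb (SD, n = 2). Just outside the upper limit, the 289 genes of 10 to under 11 kb had 11.2 ± 1.28, against 5.04 ± 2.21 in CFAP20-KO. Of the 5 longest members and the 5 shortest genes beyond the limit, 2 and 1 had any signal, at most 2 overlaps a library, and no gene in the tables was shorter than 3000 bp.

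The distribution along the gene was asked of a profile scaled to gene length. In tagged-CFAP20 each 10% of the length of the short genes held between 8.74% and 11.1% of the signal, near the 10% of an even spread. The CFAP20-KO libraries scattered more, from 5.98% to 13.4% in replicate 1 and from 7.42% to 11.98% in replicate 2. They held far fewer overlaps on short genes, and the part of counting error in this scatter was not tested. The first 20% of the gene held 14.3% and 20.2% in CFAP20-KO against 20.3% and 18.5% in tagged-CFAP20. The last 20% held 25.3% and 20.6% against 18.7% and 21.2%. The groups overlapped in both (exact permutation p = 0.667 each, adjusted p = 0.762), and without CFAP20-KO replicate 1 the difference in the first 20% turned from 2.11 to -0.842 percentage points.

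**Figure D2:**
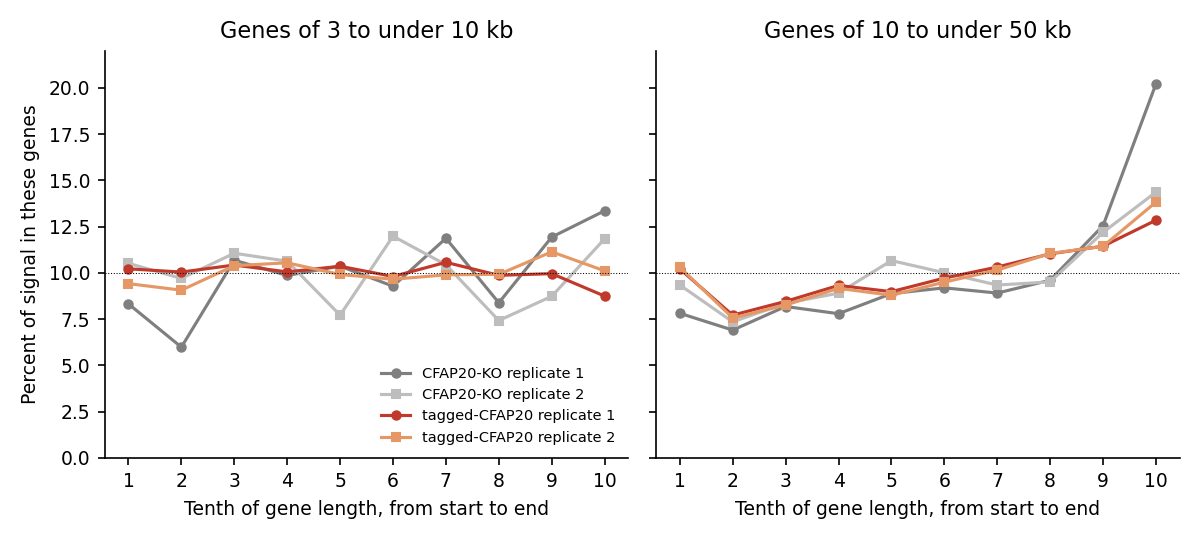
Percent of signal (vertical axis) in each 10% of the gene from start to end (horizontal axis) for short genes and for genes of 10 to under 50 kb, with 1 line a library and a dotted line at an even spread of 10%. The longer genes rise to between 12.8% and 20.2% in the last 10%, and the short genes stay near 10% with the tagged protein.

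Genes of 10 to under 50 kb had a different shape. Their last 20% held 32.7%, 26.5%, 24.3% and 25.2% of the signal in CFAP20-KO replicates 1 and 2 and tagged-CFAP20 replicates 1 and 2. The short genes were lower in all 4 libraries, by 5.76 ± 1.42 percentage points (SD of the differences, n = 4, exact paired permutation p = 0.125, the smallest that 4 pairs allow, adjusted p = 0.208). In the first 20% the short genes were higher in 3 of 4 libraries, by 1.51 ± 1.75 points, which is within the spread (exact paired permutation p = 0.250, adjusted p = 0.313).

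Signal did not stop at the annotated ends. The density in the 2 kb past the end was 0.522 and 0.378 of that in the gene in CFAP20-KO and 0.387 and 0.388 in tagged-CFAP20. The difference between the groups was -0.0628 and turned to 0.00914 without CFAP20-KO replicate 1 (exact permutation p = 1 with all 4 libraries). In the 2 kb upstream of the short genes the ratio was 0.584 and 0.521 in CFAP20-KO and 0.384 and 0.382 in tagged-CFAP20. From 5 to 3 kb upstream it was 0.503 and 0.467 in CFAP20-KO and 0.417 and 0.435 in tagged-CFAP20. Their first 500 bp stood at 0.791 and 1.26 in CFAP20-KO and at 1.10 and 1.01 in tagged-CFAP20. Signal was thus higher inside the annotated start than before it in both groups. Genes of 10 to under 50 kb had this step too, with 1.41 and 1.45 in the first 500 bp against 0.301 and 0.287 in the 2 kb upstream in tagged-CFAP20. The data are labelled with a minimum gap of 2 kb, and what the gap was measured between is not stated. Neighbouring genes and, in an unstranded signal, antisense transcripts can also lie in these flanks, and their part was not tested.

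Exons carried more signal per kb than introns. Over the 2811 short genes with an intron in their canonical transcript, exon bins had 5.42 and 7.73 per kb in CFAP20-KO and 17.0 and 15.7 in tagged-CFAP20, and intron bins had 1.77 and 2.36 in CFAP20-KO and 6.56 and 5.51 in tagged-CFAP20. Exon density was therefore 3.06 and 3.27 times intron density in CFAP20-KO and 2.59 and 2.86 times in tagged-CFAP20, lower by 0.443 with the tagged protein and with groups that did not overlap (exact permutation p = 0.333, adjusted p = 0.533). With the exons of any transcript in place of the canonical one the direction turned, to 0.515 higher with the tagged protein. The size moved with the length limits, to -0.763 at 3 to under 8 kb (exact permutation p = 0.333) and to -0.0941 at 5 to under 10 kb, where the groups overlapped (exact permutation p = 0.667). Exon bins made up 24.4% of the bins of these genes and held 49.6% and 51.3% of their signal in CFAP20-KO and 45.5% and 47.9% in tagged-CFAP20. In genes of 10 to under 50 kb the ratio was 4.75, 4.58, 3.96 and 4.21 in the 4 libraries in the same order. The short genes were lower in all 4, by 1.43 ± 0.176 (SD of the differences, n = 4, exact paired permutation p = 0.125, adjusted p = 0.208).

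Base composition was taken over whole bins of short genes that had an intron and had signal in a tagged-CFAP20 library. These were 8540 exon bins and 25051 intron bins. Genes with signal in CFAP20-KO alone were left out, so the CFAP20-KO values do not cover all of its signal. Intron bins averaged 47.05% GC, and weighted by signal 48.1% and 48.2% in CFAP20-KO and 49.4% and 48.7% in tagged-CFAP20. Exon bins averaged 50.8% GC, and weighted by signal 48.4% and 50% in CFAP20-KO and 51.5% and 51.3% in tagged-CFAP20. Whole protein-coding members with signal in both tagged-CFAP20 libraries had a median GC of 50.7% and a median length of 6557 bp, against 49.0% and 5786 bp for those with signal in no library.

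Protein-coding members held most of the signal. They had 4.40 and 6.32 per kb in CFAP20-KO and 15.0 and 13.1 in tagged-CFAP20, and 51.3% of the 1479 had signal in some library. Long noncoding members had 1.04 and 1.46 per kb in CFAP20-KO and 2.64 and 2.44 in tagged-CFAP20, and 32.6% of the 1557 had signal. Their share of the short-gene signal was 18.0% and 17.2% in CFAP20-KO and 14.2% and 14.9% in tagged-CFAP20, a difference of -3.05 percentage points with groups that did not overlap (exact permutation p = 0.333, adjusted p = 0.533). A single gene, NORAD, carried much of that difference, which was -1.30 points without it.

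Among protein-coding members the number of exons in the canonical transcript went with the difference between the groups, a split chosen after the values were seen. Of the 79 genes of 1 exon, only 14 and 5 had signal in CFAP20-KO replicates 1 and 2, so their control density rests on few genes. These 79 had 12.3 ± 0.176 per kb with the tagged protein and 7.31 ± 2.53 in CFAP20-KO, a ratio of 1.68 (SD, n = 2 each). Genes of 2 to 4 exons had 9.69 ± 0.582 and 4.72 ± 1.54, a ratio of 2.05. Genes of 5 and more exons had 18.8 ± 2.18 and 5.87 ± 1.07, a ratio of 3.20. Genes of 5 and more exons held 54.7% and 49.3% of the coding short-gene signal in CFAP20-KO and 63.7% and 61.7% in tagged-CFAP20 (exact permutation p = 0.333, the smallest possible). Without the 10 members with most signal these shares were 49.4% and 39.8% against 57.3% and 54.6%, again without overlap.

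Gene by gene, 92 members had a mean signal of at least 277, 1 overlap of the shallowest library, and were among the 1486 genes tested with limma on log2(signal + 277). None of the 92 passed an adjusted p of 0.05 in either direction, and the percentage of all genes tested that passed was 0 for higher and 0 for lower. Unadjusted p was under 0.05 for 35 members, 34 of them higher with the tagged protein, and for 499 of all genes tested. The smallest limma adjusted p, 0.0533, was shared by 9 members. Of the 92, 70 had a log2 change above 0 and 22 below it, with a median of 0.61 against 0.78 over all genes tested. After scaling to the same window totals these medians were -0.12 and -0.01.

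In 48 of the 92 members both tagged-CFAP20 libraries lay above both CFAP20-KO libraries, which is 52.2% against 62.5% of all genes tested. In 7 members both lay below, 7.61% against 2.96% of all genes tested. An exact binomial test of pooled reads, which allows for counting error at each depth and not for the spread between libraries, called 25 members higher on the deposited scale, 27.2% against 30% of all genes tested. It called 1 member lower, NORAD, where 0.135% of all genes tested were lower. When each gene was taken as a share of its library's gene signal, this test called 0 members higher (0.269% of all genes tested) and NORAD lower (0.606% of all genes tested), with 16 members at an unadjusted p under 0.05. With 1 library left out, the lone library of its group is assumed to vary like the pair in the other group. Without CFAP20-KO replicate 1 limma called 42 higher and 25 lower, 63.2% of the 106 members tested where 63.5% of all genes tested were called. Without CFAP20-KO replicate 2 it called 59 higher and 1 lower, 74.1% of the 81 members tested against 73.2% of all genes tested. With either tagged-CFAP20 replicate left out it called 0 members and 0 genes, with 6 and 7 members at an unadjusted p under 0.05.

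**Figure D3:**
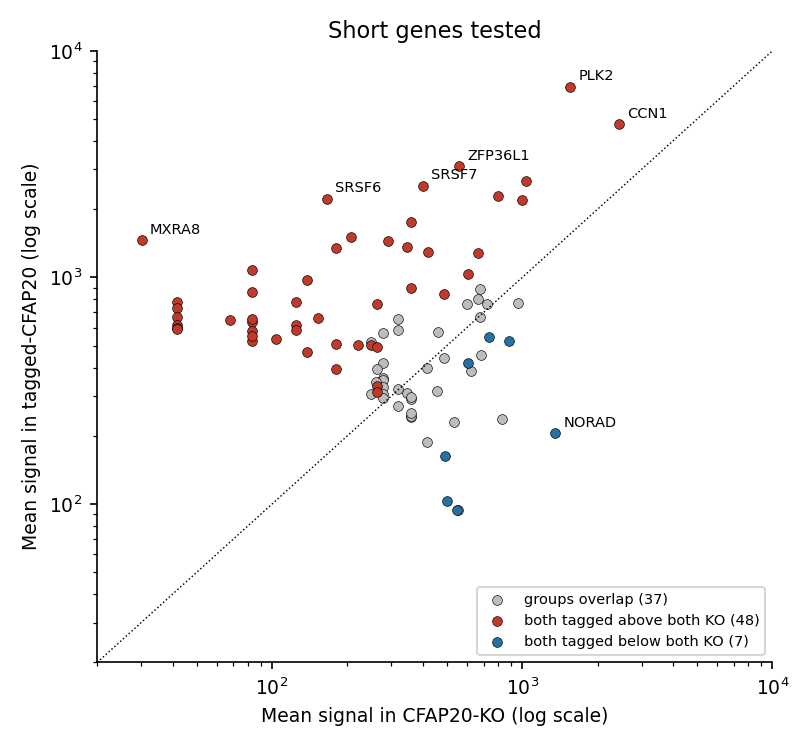
Mean signal of the 92 short genes tested in tagged-CFAP20 (vertical axis, log scale) against CFAP20-KO (horizontal axis, log scale), with the dotted line at equal signal. The 48 red points have both tagged-CFAP20 libraries above both controls and the 7 blue points have them below, with NORAD farthest below the line.

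Growth response genes were the 3 members with most signal in the tagged-CFAP20 libraries. PLK2, a polo-like kinase induced by growth factors (chromosome 5, 58453982 to 58460260, minus strand), had 1162 and 1938 in CFAP20-KO and 7228 and 6673 in tagged-CFAP20. All 4 values were high for a short gene, and both tagged-CFAP20 libraries lay well above the controls. The mean was 4.48 times as high with the tagged protein (log2 change 2.02, SE 0.36, limma adjusted p = 0.0533), and as a share of gene signal it stood at 0.153% and 0.180% in CFAP20-KO and at 0.342% and 0.356% in tagged-CFAP20. That share did not pass the exact binomial test (adjusted p = 0.0730). Its signal covered 31 of 32 bins, introns included.

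CCN1, a secreted matrix protein that binds integrins, had 1826 and 3046 in CFAP20-KO and 5161 and 4298 in tagged-CFAP20, the highest control values among the members. Its ratio was 1.94 (limma log2 change 0.92, SE 0.37, adjusted p = 0.146). As a share the gene stood at 0.241% and 0.283% against 0.244% and 0.230%, so the groups overlapped once the common factor was removed. ZFP36L1, an RNA-binding protein that promotes decay of AU-rich mRNAs, had 843.3 and 277 in CFAP20-KO and 3356 and 2832 in tagged-CFAP20. It was 5.52 times as high with the tagged protein (limma log2 change 2.09, SE 0.44, adjusted p = 0.0533), and its ratio as a share was 1.84 (exact binomial test, adjusted p = 0.490).

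SOX9, a transcription factor of cartilage and progenitor cells, had 166 and 0 in CFAP20-KO and 1022 and 1129 in tagged-CFAP20. On pooled reads this was a ratio of 12.2 with a 95% exact counting interval from 2.16 to 488, since the controls held 1 read. Exon bins of SOX9 held 900 and 1101 of its signal in tagged-CFAP20 and intron bins 116 and 27.9. KLF6, a zinc finger factor of the growth response, had 83.0 and 0 in CFAP20-KO and 706.9 and 752.4 in tagged-CFAP20, a pooled-read ratio of 8.27 (1.44 to 331). Both shared the limma adjusted p of 0.0533.

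Of the 28 growth response genes in the tables, 23 were short, 22 of those had signal and 9 were tested. The groups did not overlap in 7 of the 9, all higher with the tagged protein, where 62.5% of all genes tested were higher. MYC and SOX4, a pair of transcription factors, were the exceptions and are named because the count is small. The median log2 change of the 9 was 1.67, beside 0.78 over all genes tested, and 0 of the 9 passed in limma. Summed over the short members the list had 5284 and 7753 in CFAP20-KO and 22196 and 19794 in tagged-CFAP20, a ratio of 3.22 where all short genes gave 2.45. The list was chosen with earlier results of these data known. Some members, such as SOX9 and KLF6, reached the mean required for a test only through the tagged-CFAP20 libraries. These values therefore describe the list and do not test it.

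**Figure D4:**
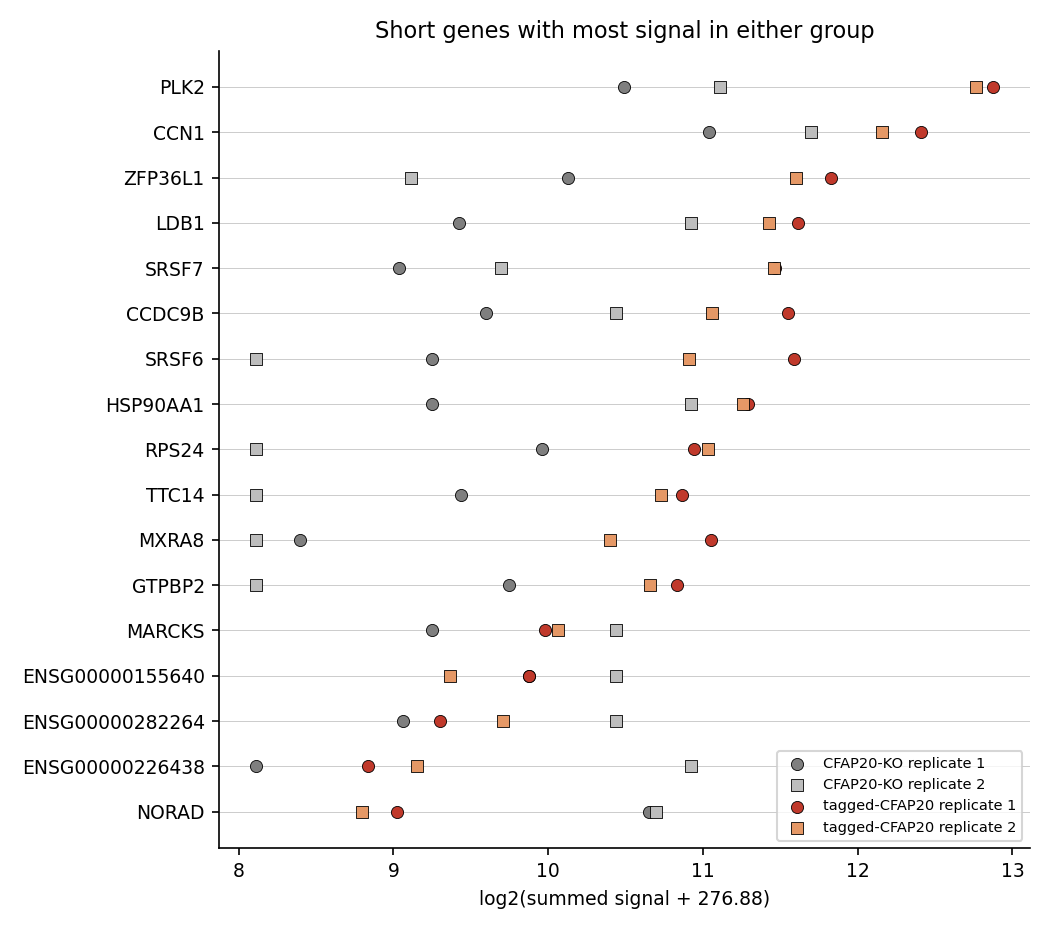
Signal on log2(signal + 277) (horizontal axis) for short genes among the 12 with the highest mean in each group (rows), with 1 point a library. PLK2 and CCN1 lead in the tagged-CFAP20 libraries, and NORAD at the bottom has both CFAP20-KO libraries above both tagged-CFAP20 libraries.

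Splicing regulators formed the next group, and in SRSF6 and SRSF7 most of the signal lay in introns of the canonical transcript. SRSF7, an SR protein that binds pre-mRNA and sets splice site choice, had 249 and 553.8 in CFAP20-KO and 2545 and 2536 in tagged-CFAP20, 2 nearly equal values far above both controls. Pooled reads gave a ratio of 9.67 (95% exact counting interval 3.27 to 47.2, 3 control reads), and limma a log2 change of 2.09 (SE 0.38, adjusted p = 0.0533). SRSF6, another SR protein, had 332 and 0 in CFAP20-KO and 2809 and 1644 in tagged-CFAP20, a pooled-read ratio of 8.55 (2.89 to 41.7, 3 control reads) and a log2 change of 2.57 (SE 0.52, limma adjusted p = 0.0533). As shares of gene signal their ratios were 4.02 and 3.56, which did not pass (exact binomial test, adjusted p = 0.138 and 0.239).

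Inside SRSF6, the 10 intron bins of the canonical transcript held 2185 and 1393 of the signal in tagged-CFAP20 and its 22 exon bins 642.7 and 251. Inside SRSF7, 26 intron bins held 1864 and 1895 and 13 exon bins 681.2 and 640.9. Bins that are exonic only in another SRSF7 transcript held 57.1% and 66.5% of its signal on 10 of 40 bins. In SRSF6 the printed stretch was the leading bin, and 3 of its 32 bins held 40.9% and 39.0% of the signal.

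The other splicing factors tested were PRPF38B and SRSF10, named because the list was small. PRPF38B, a spliceosome activation factor, had 415 and 277 in CFAP20-KO and 1581 and 1136 in tagged-CFAP20, a ratio of 3.93 (limma log2 change 1.39, SE 0.39, adjusted p = 0.0740). SRSF10, an SR protein, had 608.9 ± 78.0 in CFAP20-KO (SD, n = 2) and 1118 and 961.4 in tagged-CFAP20, a ratio of 1.71 (limma log2 change 0.57, SE 0.36, adjusted p = 0.301), and at the same window totals its log2 change was -0.28. All 4 tested members of the list were higher with groups that did not overlap, where 62.5% of all genes tested were, and their median log2 change was 1.74 beside 0.78 over all genes tested, with 0 past the threshold in limma. The 7 short members summed to 1826 and 1938 in CFAP20-KO and 8530 and 6960 in tagged-CFAP20, a ratio of 4.12. This list too was chosen with earlier results of these data known, so its values are a description and not a test.

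**Figure D5:**
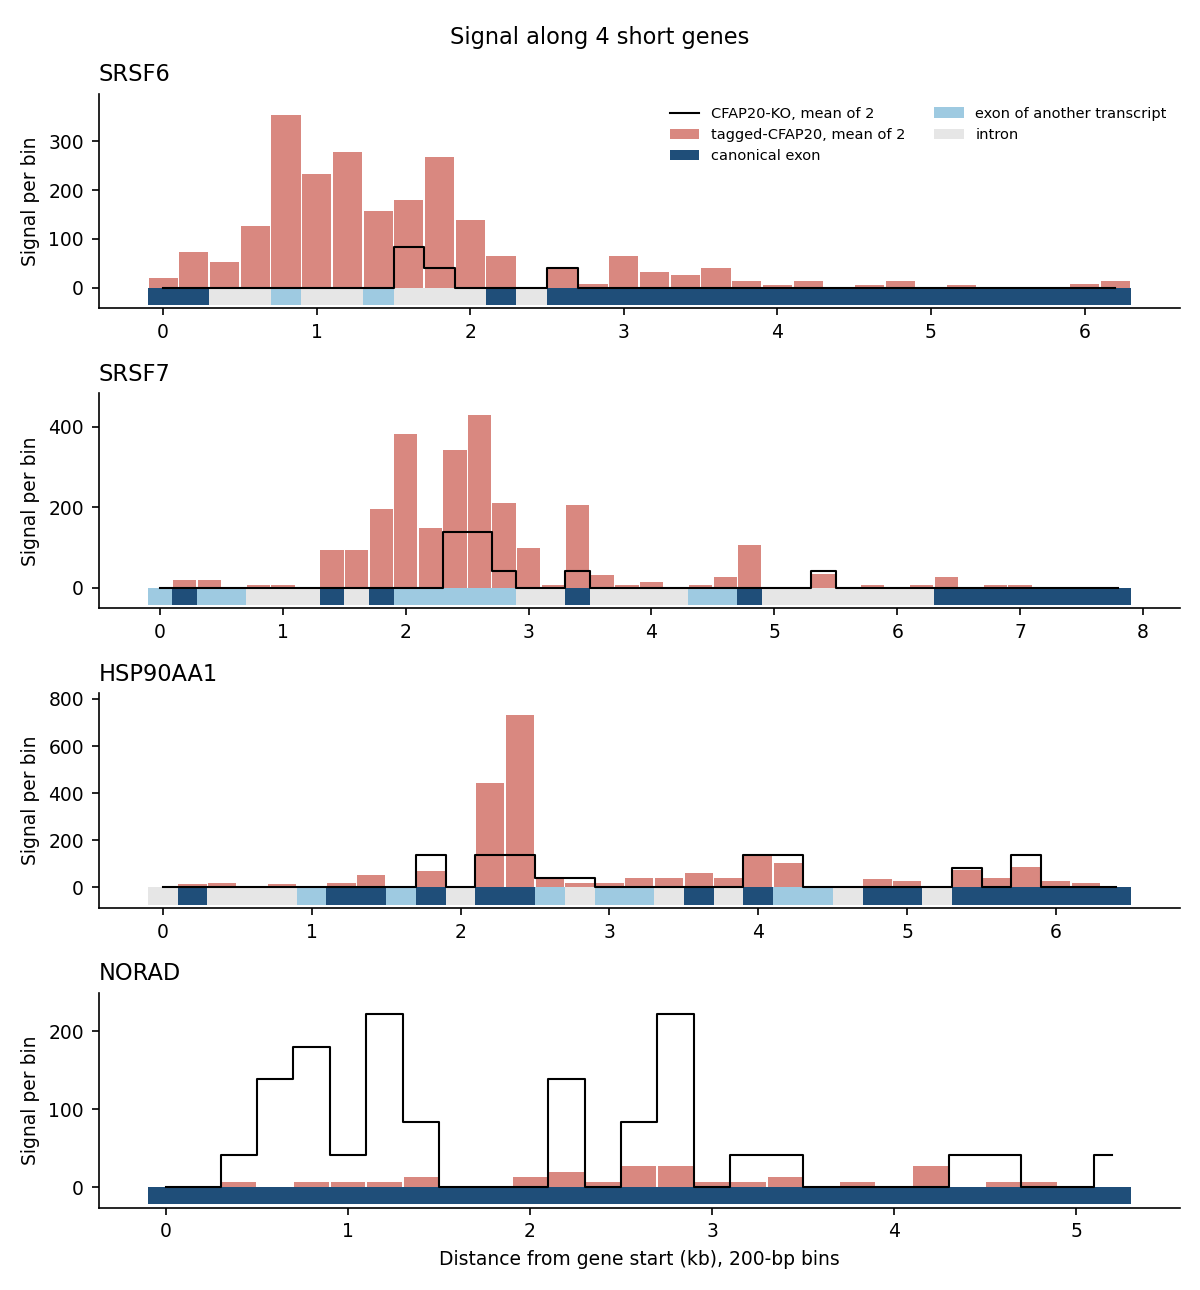
Signal per 200-bp bin (vertical axis) against distance from the gene start in kb (horizontal axis) in SRSF6, SRSF7, HSP90AA1 and NORAD, with red bars for the mean of the tagged-CFAP20 libraries, a black line for the mean of CFAP20-KO and a strip for exons and introns. Signal with the tagged protein peaks over introns of the canonical transcript in SRSF6 and SRSF7 and over a coding exon in HSP90AA1, and in NORAD the black line lies above the bars in most bins with CFAP20-KO signal.

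Among chaperone and translation genes, HSP90AA1, the stress-inducible cytosolic HSP90, had 332 and 1661 in CFAP20-KO and 2224 and 2174 in tagged-CFAP20. Its groups did not overlap, the controls were far apart, and its ratio of 2.21 had a limma adjusted p of 0.196. Exon bins held 82.1% and 84.6% of its signal in tagged-CFAP20 on 16 of 33 bins. The 3 bins highest in tagged-CFAP20 replicate 1 held 59.5% and 59.6%. RPS24, a protein of the small ribosomal subunit, had 719.2 and 0 in CFAP20-KO and 1690 and 1820 in tagged-CFAP20 (ratio 4.88, limma adjusted p = 0.0954). EEF1A1, the elongation factor that brings tRNA to the ribosome, had 415 and 553.8 against 769.98 and 926.6, a ratio of 1.75 (limma adjusted p = 0.330), and at the same window totals its log2 change was -0.22. EIF1, which helps the ribosome choose the start codon, had 166 and 138 against 616.96 and 703.6, a ratio of means of 4.34. Its pooled-read ratio was 7.54 (95% exact counting interval 1.31 to 302), with 2 and 0.5 control overlaps rounded to 1 read. These genes have processed pseudogenes, so their values are uncertain.

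All 14 short ribosomal protein genes had signal and 4 were tested, of which RPS24 alone was higher with groups that did not overlap, where 62.5% of all genes tested were. RPL37A, of the large subunit, had 0 and 553.8 in CFAP20-KO and 450 and 390 in tagged-CFAP20. The 14 summed to 1881 and 2215 in CFAP20-KO and 5462 and 4696 in tagged-CFAP20, a ratio of 2.48, close to that of all short genes. Among the chaperones DNAJB1, a co-chaperone of HSP70, had 0 and 553.8 against 382 and 230, and its groups overlapped.

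Among the remaining members with most signal, LDB1, a transcriptional cofactor that bridges LIM proteins, had 410 and 1661 in CFAP20-KO and 2859 and 2470 in tagged-CFAP20 (ratio 2.57, limma adjusted p = 0.141). The coiled-coil gene CCDC9B had 498 and 1108 against 2719 and 1855 (ratio 2.85, limma adjusted p = 0.0980). MXRA8, a membrane protein known as an alphavirus receptor, had 60.2 and 0 against 1843 and 1072, the widest gap among these genes. Its pooled-read ratio of 16.8 had an interval from 2.96 to 665.7 on 1 control read (limma adjusted p = 0.0533). TTC14, a tetratricopeptide protein, had 415 and 0 against 1591 and 1421, and GTPBP2, a GTPase that rescues stalled ribosomes, 7 and 0 overlaps in CFAP20-KO and a signal of 1542 and 1338 in tagged-CFAP20. CREBZF, a bZIP factor of 1 exon, had 83.0 and 0 against 844.98 and 710.6, with a pooled-read ratio of 8.90 (1.55 to 356, limma adjusted p = 0.0533).

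Cell cycle, cytoskeleton, respiration and matrix genes had few short members with much signal. AURKB, the Aurora kinase of the chromosomal passenger complex, had 135 and 0 in CFAP20-KO and 629.8 and 661.8 in tagged-CFAP20, a pooled-read ratio of 7.43 (95% exact counting interval 1.29 to 298). CDKN2B, a CDK4/6 inhibitor, had 83.0 and 830.6 against 283 and 348, with overlap. The tubulins TUBA1A and TUBG1, the respiratory chain subunits NDUFB4 and COX7C and the secreted protease ADAMTS1 fell short of the mean signal required for a test. TUBA1A had 83.0 and 0 against 362 and 348, and COX7C 83.0 and 415 against 64.3 and 97.5. ADAMTS1 had 0 in both controls and 424 and 195 in tagged-CFAP20. Its tagged-CFAP20 mean was 1.18 times the floor of 263, and replicate 2 lay below that floor.

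NORAD stood apart among the members. It is an unspliced cytoplasmic long noncoding RNA that sequesters Pumilio proteins (chromosome 20, 36045622 to 36050960, minus strand). Its signal was 1328 and 1384 in CFAP20-KO and 244 and 167 in tagged-CFAP20, so both tagged-CFAP20 libraries lay far below both controls. The mean with the tagged protein was 0.152 times that in CFAP20-KO (limma log2 change -1.76, SE 0.38, adjusted p = 0.0533). In the exact binomial test it was lower on the deposited scale, with 16 pooled reads in CFAP20-KO, 23 in tagged-CFAP20 and a ratio of 0.1505 (95% exact counting interval 0.0761 to 0.305, adjusted p = 6.82e-06), and as a share, with a ratio of 0.0626 (adjusted p = 1.90e-09). Across the limma settings its log2 change ranged from -2.74 with a pseudocount of 1 to -1.08 with a pseudocount of 3 overlaps of the shallowest library.

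NORAD holds 15 matches of TGTANATA on its strand, and 7 of the 3214 short genes, NORAD included, hold as many. Of its 26 whole bins 42.3% had a match, against 2.10% of the 91636 bins of all short genes, and 1.86% of those bins had one on the other strand. Bins with a match held 56.3% and 40% of NORAD signal in CFAP20-KO and 47.4% and 41.7% in tagged-CFAP20. A match of these letters is a description and not a binding site.

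Of the other members whose tagged-CFAP20 libraries both lay below both controls, 5 are given here, chosen after their values were seen. They are LGALS1, TMED9, ACOT2, PPP1R3C and ENSG00000155640. LGALS1, the galactose-binding lectin galectin-1, had 663.6 and 553.8 against 385 and 453. ACOT2, a mitochondrial acyl-CoA thioesterase, had 265 and 830.6 against 90.0 and 97.5, a ratio of 0.171 (limma adjusted p = 0.154). PPP1R3C, a subunit that directs a phosphatase to glycogen, had 166 and 830.6 against 116 and 91.5, and TMED9, a cargo receptor of the secretory pathway, 332 and 646.5 against 159 and 167. None of these 5 passed the exact binomial test on either scale.

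Several members were among the 12 strongest in CFAP20-KO without a difference beyond the spread. MARCKS, an actin-linked substrate of protein kinase C, had 332 and 1108 in CFAP20-KO and 732.6 and 794.2 in tagged-CFAP20. Its groups overlapped (limma adjusted p = 0.813). The noncoding gene ENSG00000226438 had 0 and 1661 against 180 and 293, so its place among the strongest rests on CFAP20-KO replicate 2.

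Long noncoding members other than NORAD reached the test in 11 cases, of which 6 had both tagged-CFAP20 libraries above both controls and 0 had them below, where 62.5% and 2.96% of all genes tested did. CRNDE, a long noncoding RNA raised in many tumours, had 83.0 and 0 in CFAP20-KO and 590.5 and 750.1 in tagged-CFAP20 (limma adjusted p = 0.0569). Several are antisense genes, such as HNRNPK-AS1 with 207.5 and 0 against 577.8 and 493, and in an unstranded signal their reads cannot be told from those of the gene on the other strand.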

How the data were processed

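FLASH-seq libraries of 2 CFAP20-KO and 2 tagged-CFAP20 samples were analysed from 1 table each, tied to its sample by name. UMI-tools 1.0.0, Bowtie2 2.3.5, HOMER 4.8.2, R 4.0.5 and hg38 are listed per the submitters' processing notes, with no role or order. The deposited values are signal per 200-bp bin around each gene start, all whole multiples (within 0.01) of 1 step per library. For that step and the strand, the method is not given in the sources used here. Of the columns, 1 matched no sample and was not used.

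Signal was summed from gene start to gene end, within 100 kb, and annotated with GENCODE 44. Genes with a mean of at least 276.88, the largest step, were fitted with limma 3.58.1 (R 4.3.3, trend) on log2(signal + 276.88), and called at an adjusted p of 0.05 (Benjamini-Hochberg). The script was tested on simulated data. Exact permutation tests compared sums and shares, and an exact binomial test compared pooled reads. Other calculations used Python 3.11.15 with numpy 2.4.6, pandas 2.3.3 and scipy 1.17.1, and statsmodels 0.14.6. Depth is given per library in the report.

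Named genes were the 12 members with most signal in each group, the 2 with most in each of 15 gene lists, and members past the threshold, and others are named as chosen after their values were seen. These included all members at the smallest adjusted p. Of the genes the rule names, 2 are not reported here. Members and lists were chosen with earlier results of these data known. Printed bins, the exon-number split, the comparison with genes of 10 to under 50 kb and 3 of the alternatives were also chosen after seeing the data. Alternatives covered pseudocount, filter, scaling, weights, length limits and left-out libraries.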

Additional observations from a re-analysis of the deposited data

How the results depend on the processing

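With 2 libraries a group and at most 16 CFAP20-KO overlaps for NORAD, single members rest on few control reads. The direction of the 8 summary measures held under the alternatives run, except that the exon over intron difference was 0.515 with exons of any transcript (chosen after seeing the data), and the differences in the first 20% and past the gene end turned without CFAP20-KO replicate 1. Leaving out each library in turn gave 2.06 to 3.02 for the ratio of summed signal, 0.807 to 1.01 points for the share of gene signal, 0.133 to 0.167 for the density ratio, -0.842 to 5.06 points for the first 20%, -5.32 to -0.599 for the last 20%, -0.577 to -0.308 for exon over intron density, -3.44 to -2.66 points for long noncoding genes and -0.135 to 0.00914 past the gene end. The members limma called ranged from 0 to 59 higher and from 0 to 25 lower in the same runs, in which 0 to 73.2% of all genes tested were called. They were 22 higher and 1 lower (25% of members tested, 18.4% of all genes tested) with a pseudocount of 3 overlaps of the shallowest library, 256 and 1 (30.7% and 23.7%) when genes needed signal in at least 2 libraries, 35 and 1 (39.1% and 37.6%) with precision weights, and 7 and 1 (21.6% and 22.4%) over the first 3 kb. The exact binomial test gave 25 and 1, and 0 and 1 on shares. The cause was not tested.

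A replicate block gave 17 higher and 1 lower, 19.6% of members tested against 11.6% of all genes tested. Whether the numbers pair the libraries could not be settled. Deviations of same-numbered libraries correlated at r = -0.0274, and with 2 libraries a group the other pairing gives the same value with its sign turned. Few control reads also leave much counting error in these deviations.

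Log2 changes of members whose sign turned were as follows. With the same window total they were -0.12 for CCN1, -0.28 for SRSF10, -0.22 for EEF1A1, -0.60 for MARCKS and -0.098 for DNAJB1. With quantile normalization they were -0.079 for SRSF10, -0.064 for EEF1A1, -0.41 for MARCKS, -0.33 for RPL37A and -0.53 for DNAJB1. On shares they were -0.092 for CCN1, -0.51 for SRSF10, -0.32 for EEF1A1 and -0.71 for MARCKS. Precision weights gave 0.083 for ENSG00000282264, 0.30 for CDKN2B and 0.15 for ENSG00000226438. With each library left out in turn they ran from -0.41 to 0.77 for MARCKS, -0.25 to 1.33 for RPL37A and, in the 2 such runs that tested it, -0.52 to 0.46 for DNAJB1, all below 0 without CFAP20-KO replicate 1, and from -0.93 to 0.44 for ENSG00000282264, above 0 without CFAP20-KO replicate 2. The first 3 kb gave 0.081 for LGALS1. The exact binomial test gave 0.037 for ENSG00000282264 and 0.25 for CDKN2B. A pseudocount of 10 gave 0.21 for CDKN2B and 0.89 for ENSG00000226438, and a pseudocount of 1 gave 0.25 and 2.50.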
